A study of Mus musculus with 7 samples.

Results

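The regions described here are the stretches of the mouse genome that were called as bound by retinoid X receptor α (RXRα) under both diets and by no retinoic acid receptor (RAR) under either. Peaks of the 6 deposited lists that overlapped or touched were merged into 87787 regions, of which 46703 were called in both RXRα lists. The members were selected on these calls: 14821 regions had a peak in both RXRα lists and in none of the 4 RAR lists, which is 31.7% of the regions called in both RXRα lists and 16.9% of all regions. They are called RXRα-only regions below, and the other 31882 regions of both RXRα lists, which were also called in 1 or more RAR lists, are called shared regions. The absence of a RAR peak is an absence of a call, since the lists hold no values below the lowest score of 50.

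The livers came from male C57BL/6 mice, wild type and aged 3 months, fed either a control diet or a diet containing retinoic acid (RA). The labels give 1 day of feeding, while the methods of the study describe a longer treatment, so the duration is not settled. Chromatin immunoprecipitation with sequencing (ChIP-seq) was done for RARα, RARβ and RXRα, with 1 library per receptor and diet and therefore no replicates. Differences between lists thus describe these libraries, no test across animals was possible, and the Wilson 95% intervals cover counting error only.

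RXRα is a nuclear receptor that binds DNA mostly as a dimer with another nuclear receptor. Its partners include the RARs, which bind all-trans retinoic acid, and also the peroxisome proliferator-activated receptor α (PPARα, fatty acids), the farnesoid X receptor (FXR, bile acids), the liver X receptors (LXR, oxysterols), the pregnane X receptor and constitutive androstane receptor (PXR and CAR, foreign compounds), the vitamin D receptor and the thyroid hormone receptors. The dimers recognise repeats of a hexamer half-site such as AGGTCA, and the orientation and spacing of the repeat differ between partners. In the liver these receptors control lipid, bile acid and xenobiotic metabolism.

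Sequence could be examined where an RXRα-only region met a RefSeq promoter window of GRCm38.p6, which runs from 250 bases before to 50 bases after an annotated start. Of 32851 such windows, 312 (belonging to 279 genes, 134 of them protein-coding) overlapped an RXRα-only region, and 167 lay wholly inside one. Only windows of protein-coding genes are shown. Shared regions overlapped 9288 windows. The sequences below are the 250 bases before the start, read 5′ to 3′ in the direction of transcription, with half-sites (the consensus AGGTCA, the variant GGGTCA, the variant AGTTCA or the variant GGTTCA, on either strand) or, for Sult2a5 and Tlk2, the repeat in capitals. Slc51b, Klhdc8a and Irs3 are shown because they were those of the 10 strongest promoter regions that met a window, Alb and Hnf4a because they are defining hepatocyte genes, and Sult2a5 and Tlk2 because they held a repeat and lay wholly inside a region.
Slc51b: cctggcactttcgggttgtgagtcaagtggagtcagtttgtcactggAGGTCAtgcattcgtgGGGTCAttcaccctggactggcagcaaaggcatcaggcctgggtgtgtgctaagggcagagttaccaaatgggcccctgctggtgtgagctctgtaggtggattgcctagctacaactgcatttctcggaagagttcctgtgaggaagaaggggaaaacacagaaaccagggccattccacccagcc
Klhdc8a: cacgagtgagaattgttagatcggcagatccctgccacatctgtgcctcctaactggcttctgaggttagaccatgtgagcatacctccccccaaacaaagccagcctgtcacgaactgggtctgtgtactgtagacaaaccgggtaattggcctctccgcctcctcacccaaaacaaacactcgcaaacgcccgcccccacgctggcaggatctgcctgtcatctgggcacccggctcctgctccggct
Irs3: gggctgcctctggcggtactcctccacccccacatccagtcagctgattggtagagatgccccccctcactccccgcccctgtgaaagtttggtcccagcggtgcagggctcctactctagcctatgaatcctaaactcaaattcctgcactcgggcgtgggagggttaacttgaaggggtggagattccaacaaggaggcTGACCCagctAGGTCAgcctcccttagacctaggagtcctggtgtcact
Alb: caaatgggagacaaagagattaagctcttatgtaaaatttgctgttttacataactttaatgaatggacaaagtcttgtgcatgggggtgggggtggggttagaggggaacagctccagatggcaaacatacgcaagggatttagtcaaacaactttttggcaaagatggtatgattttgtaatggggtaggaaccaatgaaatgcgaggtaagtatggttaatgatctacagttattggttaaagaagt
Hnf4a: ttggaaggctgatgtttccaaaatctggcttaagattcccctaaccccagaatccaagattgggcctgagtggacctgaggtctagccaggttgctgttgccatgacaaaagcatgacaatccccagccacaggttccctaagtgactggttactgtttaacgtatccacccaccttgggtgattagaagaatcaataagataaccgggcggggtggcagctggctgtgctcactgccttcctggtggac
Sult2a5: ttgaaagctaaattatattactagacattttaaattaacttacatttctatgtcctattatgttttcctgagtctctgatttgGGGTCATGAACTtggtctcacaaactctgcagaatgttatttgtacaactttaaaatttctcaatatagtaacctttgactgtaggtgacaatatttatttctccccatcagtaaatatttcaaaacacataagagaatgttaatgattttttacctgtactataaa
Tlk2: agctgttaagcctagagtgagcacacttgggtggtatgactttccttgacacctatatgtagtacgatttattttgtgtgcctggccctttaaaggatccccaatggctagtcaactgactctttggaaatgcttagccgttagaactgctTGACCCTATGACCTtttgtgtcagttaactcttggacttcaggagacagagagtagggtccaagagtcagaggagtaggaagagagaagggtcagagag

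The Slc51b stretch (chr9:65422774-65423023, minus strand) held 2 half-sites in the same orientation with 10 bases between them, a spacing outside those searched. In the Irs3 stretch (chr5:137645715-137645964, minus strand) 2 half-sites faced away from each other with 4 bases between them. The Klhdc8a stretch (chr1:132298376-132298625, plus strand), the Alb stretch (chr5:90460620-90460869, plus strand) and the Hnf4a stretch (chr2:163506607-163506856, plus strand) held none of the 4 half-sites. Sult2a5 (chr7:13623717-13623966, plus strand) carried an inverted repeat with no spacer (IR0), and Tlk2 (chr11:105178557-105178806, plus strand) a direct repeat with 2 bases between the half-sites (DR2). These matches are letters found in the window and not measured binding sites. Only exact half-sites were searched, so a repeat that holds an altered half-site, at Slc51b or elsewhere, was neither marked nor counted.

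Over all windows, 13 repeats were searched on both strands: direct repeats with spacers of 0 to 8 bases (DR0 to DR8), inverted repeats with 0 or 1 base and everted repeats with 6 or 8 bases. Any of them was found in 11 of the 312 windows of RXRα-only regions (3.53%, 95% interval 1.98 to 6.20%). The counts were 94 of the 9288 windows of shared regions (1.01%, 0.83 to 1.24%) and 428 of all 32851 windows (1.30%). Of the 11 windows, those of protein-coding genes were at Ankrd23, Art4, Sult2a5 and Tlk2, and the others were at predicted or noncoding loci. Whole windows were searched, and only 167 of the 312 lay wholly inside an RXRα-only region. A counted repeat or half-site can therefore lie outside the region, as the Art4 repeat did, and the shares are not shares of called sequence. The most frequent single repeats, DR0, DR1, DR2 and DR8, each occurred in 2 of the 312 windows, and DR3, DR7 and both everted repeats in 0 of 312, which allows a share of up to 1.22% (Wilson upper bound). Longer and shorter repeats can overlap in the same window and were counted separately. At least 1 half-site was present in 58.0% of the windows of RXRα-only regions (95% interval 52.5 to 63.4%), in 40.7% of those of shared regions (39.7 to 41.7%) and in 43.7% of all windows. The windows also differed in base composition, with a median of 51.3% G and C and 5 CpG dinucleotides for RXRα-only regions against 61.0% and 21 for shared regions, and the part of composition in the half-site shares was not tested.

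RXRα-only regions were rarely at promoters. Only 318 of 14821 (2.15%, 95% interval 1.92 to 2.39%) had their midpoint within 1 kb of a protein-coding start, compared with 21.3% (20.8 to 21.7%) of shared regions and 54.8% of the 8565 regions called in all 6 lists. Regions with an RXRα call under 1 diet and no RAR call were similarly placed, with 2.92% of 9358 control regions and 2.65% of 7694 RA regions within 1 kb. Positions relative to genes were not used to choose the regions.

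The same contrast appeared when the RXRα regions were sorted by distance. Within 1 kb of a start, 4.48% of the 7095 RXRα regions had no RAR call (95% interval 4.02 to 4.99%). From 1 to 10 kb the share was 36.2%, from 10 to 50 kb 35.6%, from 50 to 100 kb 35.9%, and beyond 100 kb 39.6%. Among these fixed classes the large change lay between the first and the next, and finer distances were not compared. The intervals of the 3 classes between 1 and 100 kb overlapped. Counting from the start, 24.2% of RXRα-only regions were within 10 kb against 39.3% of shared regions, and the first 1 kb accounts for the lower share: from 1 to 10 kb it was 22.0% (21.4 to 22.7%) against 18.1% (17.6 to 18.5%). More than 100 kb away were 21.7% against 15.4%. The median distance was 30749 bp for RXRα-only and 17752.5 bp for shared regions.

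Location inside genes differed little. The midpoint was inside a protein-coding gene for 56.7% of RXRα-only regions (55.9 to 57.5%) and for 55.2% of shared regions (54.6 to 55.7%). Among regions 1 to 10 kb from a start, 58.6% of the RXRα-only and 56.8% of the shared regions lay downstream of it, and these intervals overlapped.

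The RXRα-only regions had lower scores in the RXRα lists than the shared ones. Scores are compared as the percentile within 1 list, because the deposited scores were not normalized between libraries. The median score was 120 in the control list (percentile 43.4) and 115 in the RA list (percentile 40.2), against 234 and 243 for shared regions. In the control list 40.4% of RXRα-only regions (39.6 to 41.2%) were in the upper 50% by score, and in the RA list 35.9% (35.2 to 36.7%), compared with 71.9% and 73.4% of shared regions. Their RXRα peaks were also narrower, with median widths of 473 bp under control and 479 bp under RA, against 649 and 682 bp in the shared regions.

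The share of RXRα regions without a RAR call therefore moved with RXRα score. Sorted by the lower of the 2 percentiles, it was 58.8% among the 4282 regions of the lowest 10 points and 2.21% among the 4426 regions of the highest 10 points. The scarcity at promoters, however, did not follow the score. Within each 10-point class, 1.60% to 2.85% of the RXRα-only regions lay within 1 kb of a start, while the shared regions went from 29.7% in the lowest class to 7.56% in the highest. The intervals did not overlap in 9 of the 10 classes. Weighted to the score classes of the RXRα-only regions, 28.2% of shared regions were within 1 kb, 46.5% within 10 kb and 56.7% inside a gene.

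**Figure D1:**
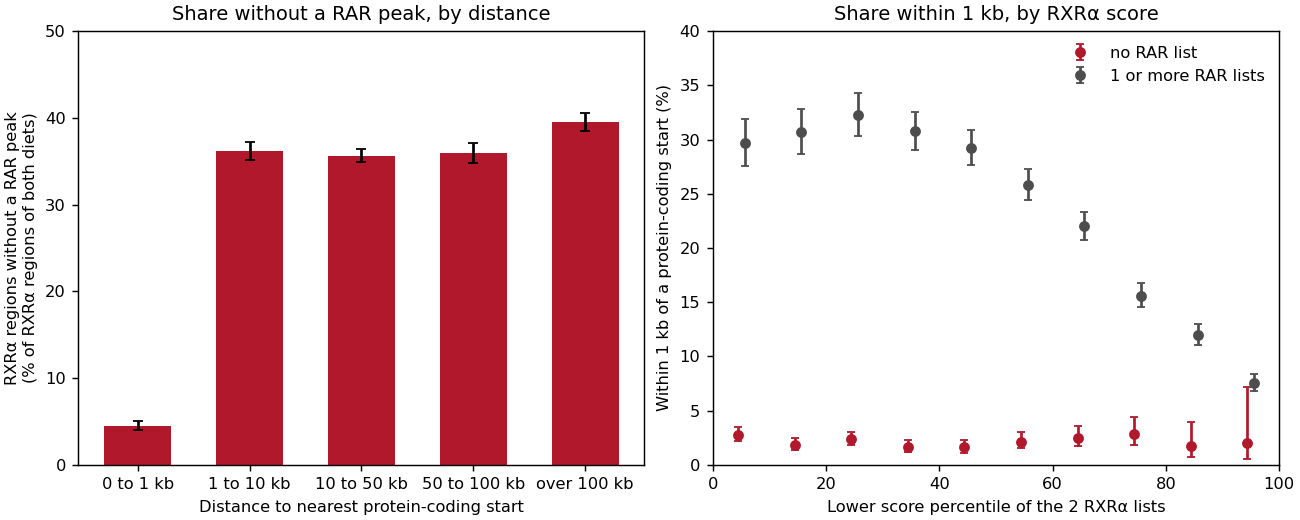
Left, percent of RXRα regions of both diets that had no RAR call, by distance of the midpoint to the nearest protein-coding start; right, percent of regions within 1 kb of a start in 10-point classes of the lower RXRα score percentile, for regions with no RAR list (red) and with 1 or more (grey). Bars and points are shares with Wilson 95% intervals. The left share is 4.48% in the class up to 1 kb and 36.2% in the class from 1 to 10 kb, and the red points stay between 1.60% and 2.85%.

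Among the 318 promoter regions, Slc51b ranked first. This gene encodes the β subunit of the basolateral bile acid exporter and is a known FXR target. Its region (chr9:65422650-65423609, 0.356 kb upstream) scored 1095 under control and 899 under RA, at percentiles 99.1 and 97.7, and the nearest RAR peak was 8533 bp away. Next came Osbpl5, an oxysterol-binding protein homologue, with scores of 537 and 684, although a RAR peak lay 170 bp away. Mtap, an enzyme of methionine salvage, scored 367 and 539 with a RAR peak at 285 bp. Scores under control and RA were 531 and 302 at Irs3, an insulin receptor substrate, and 637 and 353 at Rufy3. Tmem89, Myh4, Klhdc8a, Glipr1 and Tmem86b completed the 10 highest, with scores of 296 to 409 over both lists. Of the 10 regions, 5 had their nearest RAR peak within 1 kb and 5 farther away.

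Genes from the fixed lists added further promoters. Alb, which encodes serum albumin, had an RXRα-only region over its start (chr5:90460298-90461320, 0.061 kb upstream) with scores of 172 and 306, and a stronger one 3.42 kb upstream with scores of 536 and 412. No RAR region had its midpoint within 10 kb of the Alb start. Cyp24a1, the vitamin D 24-hydroxylase and a classical target of the vitamin D receptor, had a region 0.311 kb upstream (chr2:170497216-170497696) scoring 262 and 309, with the nearest RAR peak 9969 bp away. Hnf4a encodes a nuclear receptor central to hepatocyte identity. Its region 0.071 kb upstream of the outermost annotated start scored 159 under control and 66.5 under RA. No RAR region lay within 10 kb of that start, and other starts of the gene were not used for these distances. The Hnf4a region was no longer called with a score minimum of 100, whereas those at Slc51b, Alb and Cyp24a1 were. Srebf1, the sterol regulator of lipogenesis, and Clock had RXRα-only regions 0.636 and 0.532 kb upstream, each with a RAR peak within 1 kb.

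**Figure D2:**
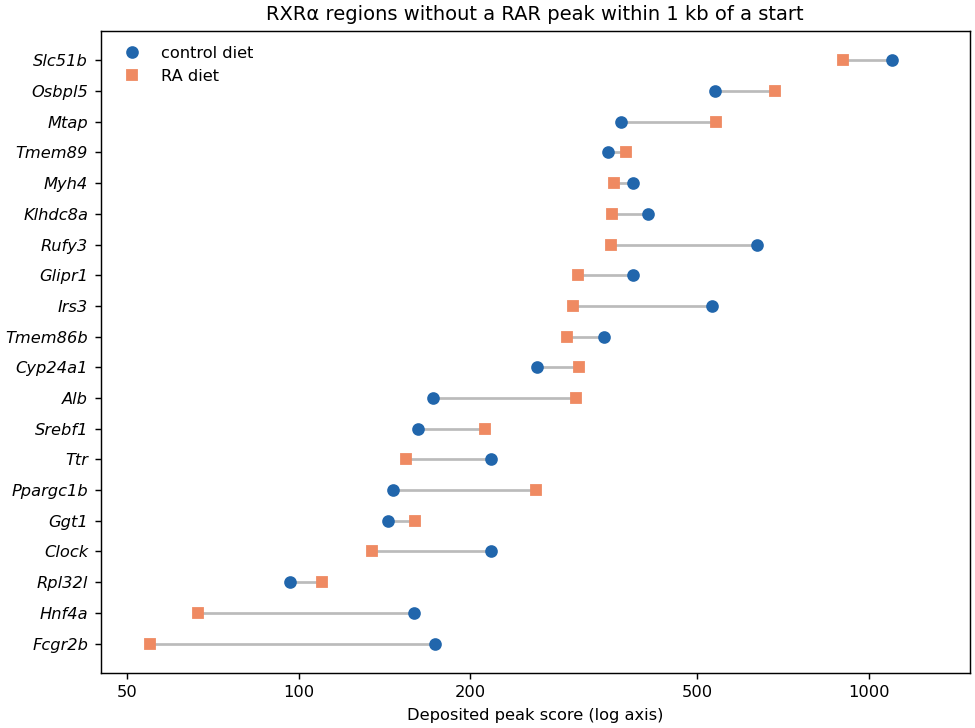
Deposited peak score (log axis) in the RXRα control list (circles) and the RXRα RA list (squares) for the 10 strongest RXRα-only regions within 1 kb of a start and those of the listed genes. Slc51b stands at 1095 and 899, above the others, and Hnf4a and Fcgr2b show the widest relative gaps between the diets.

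The strongest RXRα-only regions overall were distal. Of the 15 with the highest lower percentile, Slc51b alone lay within 1 kb of a start. The first was inside Tmem117 (chr15:95049128-95049881), 420 kb downstream of its start, with scores of 1089 and 1100 and the nearest RAR peak 96906 bp away. The second (chr12:79998619-79999342) lay 114 kb downstream of the start of Zfp36l1, which encodes an mRNA decay factor, and scored 1042 and 1169. A region 113 kb upstream of Adra1a, the α1A-adrenergic receptor (chr14:66521758-66522356), scored 1007 and 973. Others were near Rnf144a (915 and 981), Ddhd1 (1002 and 893), Tcf23 (883 and 860) and Tet2, a methylcytosine dioxygenase (827 and 764). Over these 15 regions the gap to the nearest RAR peak ran from 680 bp at Tet2 to 96906 bp at Tmem117. Nearest genes are given by position only.

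Of 21536 protein-coding genes with a known start, 3684 (17.1%) had an RXRα-only region within 10 kb, and 11175 (51.9%) had a shared region there. Of those 3684 genes, 2685 (72.9%) had a shared region too, which left 999 genes (4.64% of all) with an RXRα-only and no shared region. With no region of any RAR list within 10 kb there were 412 genes (1.91%). Over the gene span plus 10 kb, 7089 genes (32.9%) had an RXRα-only region. Single regions were the rule: 3153 genes had 1 within 10 kb, 469 had 2 and 62 had 3 or more.

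Targets of the partner receptors had RXRα-only regions mostly alongside shared ones. Among 20 PPARα targets, 9 (45%) had an RXRα-only region within 10 kb and 20 (100%) had a shared one. Over all protein-coding genes these shares were 17.1% and 51.9%, and the counts of every list below stand against them. A region inside Hadha, 2.60 kb downstream of its start and 2.87 kb upstream of that of Hadhb, scored 508 and 631 and was counted for both genes, which encode the subunits of the mitochondrial trifunctional protein of fatty acid oxidation. The region 5.77 kb downstream of the start of Fgf21, the hepatic fasting hormone, scored 276 and 363. Acadm (237 and 257), Acot1 (179 and 259) and Ehhadh (254 and 175) also had such regions.

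For FXR targets of bile acid handling the count was 9 of 18, with shared regions at 16. Besides Slc51b, Fetub had a region 3.89 kb upstream (376 and 189), and Abcb4, the phospholipid exporter of the canaliculus, had 2 inside the first 10 kb (157 and 147; 109 and 182). LXR targets had 5 of 18, or 8 with a score minimum of 100 in all lists, among them Mlxipl (184 and 243), Srebf1 (162 and 212) and Nr1h3 itself (79.5 and 148). Of 25 CAR and PXR targets, 10 had an RXRα-only region, or 17 with that minimum, and 24 a shared one. Over all protein-coding genes the share with an RXRα-only region was 16.9% with that minimum. At Gstm1, a glutathione transferase, 3 such regions were called, the strongest scoring 219 under control and 503 under RA. At Ugt1a1, the bilirubin glucuronosyltransferase, the scores went the other way, from 535 to 121. Several of these genes (Cyp2c, Cyp3a, Gstm and Gsta families) have close copies, so reads there may be shared between copies.

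Among 13 vitamin D and thyroid hormone receptor targets 3 had RXRα-only regions, namely Cyp24a1, Thrsp and Me1. The Thrsp region, 1.55 kb upstream of a thyroid hormone-responsive lipogenic gene, scored 626 and 325 and had a RAR peak 177 bp away. RAR targets had 5 of 20 (25%, 11.2 to 46.9%), among them Cdx1, Dhrs3, Tgm2 and Rara. Shared regions lay near 11 of the 20. Both intervals include the 17.1% of all protein-coding genes, and the shared shares of 53.8% and 55% lie near 51.9%. The interval of LXR targets includes 17.1% too. So do those of the hepatocyte transcription factor, clock, cholesterol synthesis, Kupffer cell, endothelial, cholangiocyte, muscle and NADH dehydrogenase lists below. Dhrs3, Tgm2 and Rara also had shared regions, and at Cdx1 the region (569 and 511) was the same as that counted for the neighbouring Pdgfrb.

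Lists of hepatocyte function ran from 22.2% of clock genes to 57.1% of genes for secreted proteins. Of 28 genes for secreted proteins 16 had an RXRα-only region within 10 kb and 27 had a shared region. Alb was followed by Serpina1a, α1-antitrypsin (425 and 274), Trf, transferrin (216 and 370), and Fgb, the fibrinogen β chain (196 and 469). Growth hormone, insulin and growth factor genes had 12 of 24, with the highest scores at a region inside Stat5b, 3.62 kb downstream of its start (477 and 552), which was also counted for the neighbouring Stat5a; both genes encode transducers of growth hormone signals. The growth hormone receptor gene Ghr had 2 (269 and 280; 95.4 and 88.8) and Insr, the insulin receptor, had 1 (204 and 207). Gluconeogenesis and glycogen genes had 7 of 14, led by Ppp1r3b, a glycogen-targeting phosphatase subunit (328 and 400). Cholesterol synthesis genes had 7 of 24, including Fdft1, squalene synthase (326 and 219), and Fdps (186 and 178). Hepatocyte transcription factor genes had 7 of 24 and clock genes 4 of 18, with Nr5a2 (341 and 120) and Nr1d2 (275 and 96.6) among them.

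Markers of other liver cells varied in both kinds of region. Of 16 hepatic stellate cell markers, 6 had an RXRα-only region within 10 kb (37.5%, 95% interval 18.5 to 61.4%) and 0 had a shared region (interval 0 to 19.4%). They were Pdgfrb (569 and 511), Colec11 with 2 regions (234 and 332; 114 and 212), Vipr1, Hand2, Ngfr and Dcn, the last with scores of only 57.8 and 60.9. RAR calls were not absent near stellate markers. A region of any RAR list lay within 10 kb of 7 of the 16, and of these 6 genes only Dcn, Pdgfrb and Ngfr had none. Over the span plus 10 kb, 4 of the 16 had a shared region. Of 16 Kupffer cell and macrophage markers, 5 had an RXRα-only and 3 a shared region. Csf1r, the receptor for macrophage colony-stimulating factor, had 2 RXRα-only regions (464 and 253; 117 and 92.6) and no RAR region within 10 kb. A score minimum of 100 in all lists left 2 of 16 stellate and 2 of 16 Kupffer markers. Both are shares below the 16.9% of all protein-coding genes with that minimum. Liver endothelial markers had 5 of 16, or 8 with that minimum, and 9 shared, and cholangiocyte markers 3 of 12 and 3 shared. These are regions near genes in whole liver, and the cells they came from cannot be told apart.

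The neuronal, muscle and olfactory receptor lists gave low counts near the start. RXRα-only regions lay within 10 kb of it at 0 of 20 neuronal genes, 2 of 20 muscle genes (Myh4 and Actc1) and 15 of 1108 olfactory receptor genes (1.35%). Over the span plus 10 kb the counts were 7 (35%), 5 (25%) and 16 (1.44%), against 32.9% of all protein-coding genes. The low neuronal count therefore holds for the start only. Housekeeping lists differed between the kinds of region. Among 95 genes with symbols that start with Rpl or Rps and a digit, 25 (26.3%) had an RXRα-only and 78 (82.1%) a shared region. Some of these 95 encode kinases. For 49 NADH dehydrogenase subunit and related genes the counts were 5 (10.2%) and 46 (93.9%). The RXRα-only share of the Rpl and Rps list was near the 27.8% of LXR targets and the 25% of RAR targets. The counts within 10 kb of the start stand against 17.1% and 51.9% over all protein-coding genes.

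**Figure D3:**
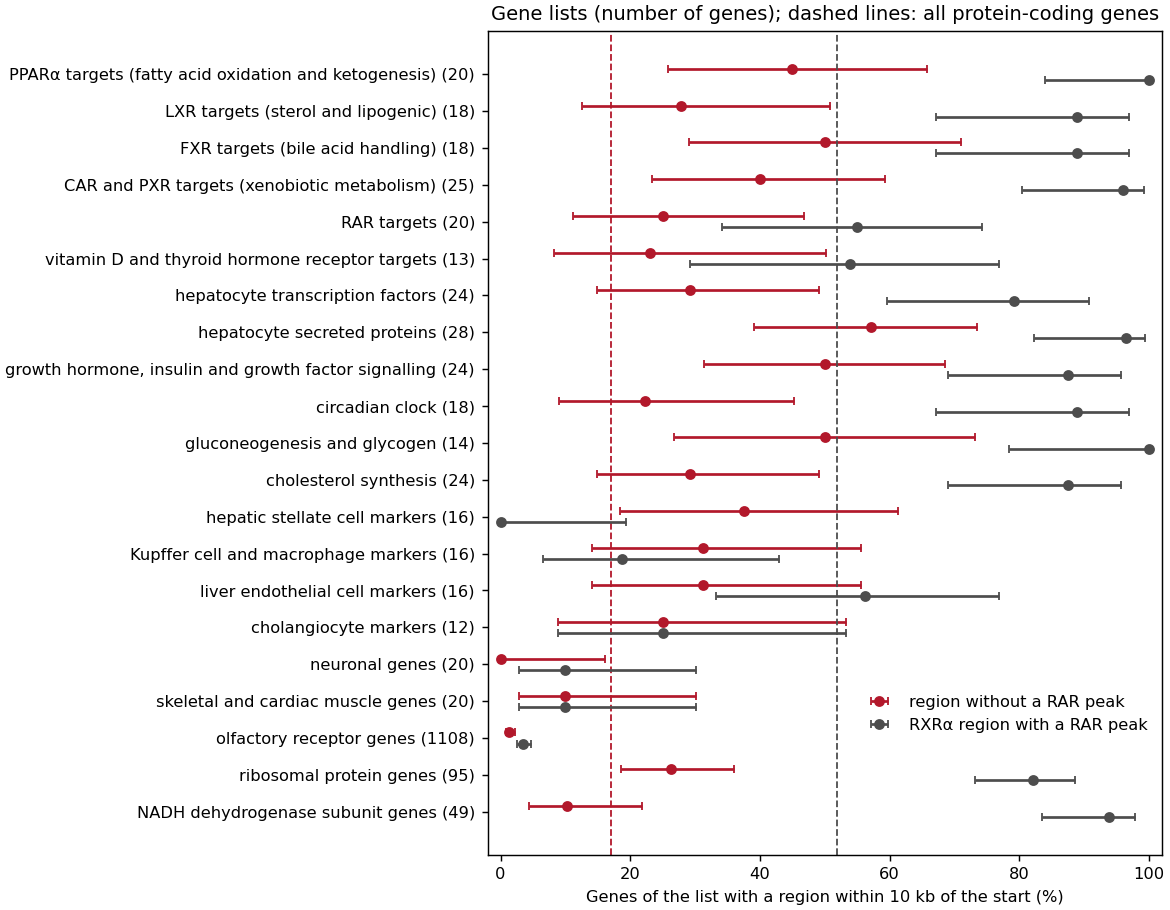
Percent of the genes of each list with an RXRα-only region (red) or a shared region (grey) within 10 kb of the start, with Wilson 95% intervals; dashed lines give 17.1% and 51.9% for all protein-coding genes and the number after each list is its size. Red points run from 0% for neuronal genes to 57.1% for hepatocyte secreted proteins, and the stellate markers are at 37.5% (red) and 0% (grey). Grey points leave out RAR regions that were not called in both RXRα lists.

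The genes with the most RXRα-only regions were long. Foxp1, a forkhead repressor whose span is 597 kb, had 18 in its span plus 10 kb, and Rora, a nuclear receptor gene of 735 kb, had 17. Arhgap26, Fbxl17, Magi1 and Pard3 had 13 each, and Ldlrad4, Pde4d, Prkce and Rad51b 12 each. Per 100 kb of span plus flanks these 10 genes held 0.908 to 3.45 regions, and all 10 also held 9 or more shared regions. Among genes with no RAR peak in the span plus 10 kb the highest numbers were small: 4 at Sult2a5, a hydroxysteroid sulfotransferase, and at the predicted gene Gm46963, and 3 at Cpa6, Npnt, Psat1, Rnf112, Tex19.1 and Tuba3b. Psat1 encodes an enzyme of serine synthesis. Sult2a5 belongs to a cluster of near-identical copies, so its reads may be uncertain in position.

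Each RXRα-only region occurred under both diets by its definition, but its score varied more than that of shared regions. In 14620 of 14821 regions each list held exactly 1 peak, and in 99.8% of these the 2 peaks overlapped by at least 25% of each width, with a median midpoint shift of 50.5 bp. The score percentile under RA minus that under control had a median of -2.09 points (quartiles -17.1 and 11.7), against 0.41 points (-7.21 and 9.13) for shared regions. Spearman's rho between the 2 percentiles was 0.53 across RXRα-only and 0.83 across shared regions, as a description over regions of the same 2 libraries. A rise of 25 points or more was seen in 1535 RXRα-only regions (10.4%) and a fall of that size in 2286 (15.4%), compared with 7.32% and 6.36% of shared regions. Both percentiles were at least 50 in 24.5% of RXRα-only and 63.9% of shared regions. Lower scores move with this wider spread, and their part in it was not tested.

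At the extremes, the largest rise was at a region inside Tmem9, from a score of 50.3 to 321. A region 34.1 kb upstream of Irs2, an adaptor of insulin signalling, went from 59.7 to 365, and one inside Tet2 from 66.9 to 428. The largest fall was inside Zhx3, a zinc finger and homeobox factor, from 481 to 55.8, followed by Tent4a, a poly(A) polymerase, from 394 to 50.9, and by a region 105 kb upstream of Frmd6 from 351 to 51.7. Each of these regions was near the lowest callable score under 1 diet, and with 1 library per diet none of the changes could be tested.

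**Figure D4:**
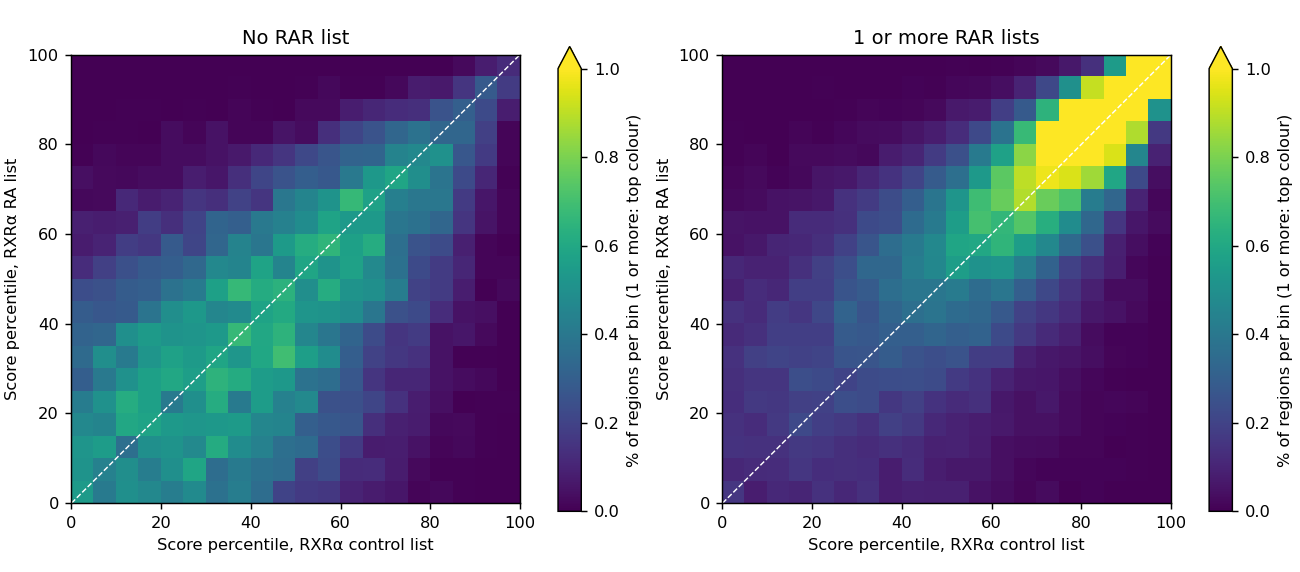
Density of regions by score percentile in the RXRα control list (x axis) and the RXRα RA list (y axis), in bins of 5 by 5 points, for regions with no RAR list (left) and with 1 or more (right); colour is the percent of regions per bin and the dashed line marks equal percentiles. RXRα-only regions spread widely around the line (rho 0.53), whereas shared regions gather at its upper end (rho 0.83).

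Many RXRα-only regions had a RAR peak nearby. The gap to the nearest peak of any RAR list had a median of 6222 bp, and it was 1000 bp or less in 2077 regions (14.0%) and 100 bp or less in 212 (1.43%). The members nearest to the boundary were at Tm4sf1 (chr3:57386302-57387342) and Usp12 (chr5:146793058-146793655), each separated from a RAR peak by 1 bp, and upstream of Cd47, separated by 2 bp. Within 100 kb a RAR peak was found for 14278 regions (96.3%). No matching gap is given for other regions or positions, so these shares have no background beside them. Just outside the boundary were 8321 regions called in both RXRα lists and in exactly 1 RAR list. That list was RARβ RA in 51.8%, RARα RA in 31.1%, RARα control in 12.6% and RARβ control in 4.41%. In the same order these lists held 29467, 44296, 35521 and 14968 peaks, and the part of list size in the shares was not tested. The single RAR peak had a median score of 69.7, and in 29.1% of these regions it scored under 60. Among the weakest was that at a region nearest to Zmynd8 (chr2:165869202-165869962), with a RAR score of 50 and RXRα scores of 374 and 395. The smallest overlap was 1 bp, at a region nearest to Mepe with a RARα RA peak scoring 103. Leaving RAR peaks that scored under 100 out of the RAR lists gave 26415 members in place of 14821.

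RXRα-only regions were spread over all chromosomes. On the autosomes they made up 29.3% (chromosome 11) to 34.7% (chromosome 18) of the RXRα regions of both diets, and on chromosome X 44.0% (389 of 884, 95% interval 40.8 to 47.3%). Among regions whose lower percentile was 50 or more the share was 25.1% on X (21.0 to 29.8%) and 14.99% on the autosomes (14.5 to 15.5%), and below that 57.8% and 49.1%. Chromosome X held 1.96% and 1.99% of the peaks of the RXRα lists, 1.86% and 1.97% of the RARα lists and 1.62% and 1.61% of the RARβ lists (control and RA). The mice were male and carry 1 X chromosome, and the part of this in the peak calls was not tested.

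Along the chromosomes, 9905 of the 14821 RXRα-only regions had neither neighbour of the same kind. The others formed runs of 2 to 6 with no other region between them. RXRα-only regions made up 16.9% of all merged regions, so many would stand alone in any order. Whether the runs differ from a random order was not tested. The 2 runs of 6 were near Rpl31 (chr1:39284758-39325596, 40.8 kb) and Tmem131l (chr3:83967128-83997938, 30.8 kb), with highest lower percentiles of 49.3 and 56.0. Runs of 5 included 1 at Slc25a15, the mitochondrial ornithine carrier of the urea cycle, over 14.8 kb, 1 at Nrp2, a semaphorin receptor, and 1 in the Ndn and Snrpn interval, an imprinted domain, over 443 kb.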

How the data were processed

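ChIP-seq of RARα, RARβ and RXRα was done by the authors on mouse liver, 1 library per receptor and diet (6 lists), with 1 input library that was not used here. Reads of 35 bp were aligned to mm10 with Bowtie and peaks were called with MACS, per the methods of the study; CASAVA 1.4 is named in the submitters' processing notes. The deposited files hold 14968 to 61128 peaks each with the score of the caller, at least 50 in every list and not normalized between libraries. Read depth per list is unknown, since the files hold no reads and the read totals in the study do not name the diet. Scores were therefore ranked within each list. Groups came from the labels. The members and lists were chosen with earlier results of these data known.

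Merging treated overlapping or touching peaks as 1 region and was checked against bedtools 2.31.1 and on simulated data. Distances run from region midpoints to the outer start of RefSeq GRCm38.p6 spans; strand came from the RefSeq promoter table for 17492 protein-coding genes and from GENCODE M1 for 4044, and 351 genes had none and were left out. Alternative promoters, exons and introns were not used in the main values. Promoter windows came from RefSeq GRCm38.p6 and contain none from chromosome 18; a genome sequence of GRCm38 was not used here. Shares have Wilson 95% intervals (scipy 1.17.1), for counting error only. Named regions were the 15 with the highest lower percentile, the 10 highest within 1 kb of a start, the 5 largest rises and 5 largest falls, the 10 genes with most regions (and the 10 without RAR peaks), and up to 6 genes per list. The 21 gene lists came from general knowledge or symbol prefixes. Alternatives changed score minimum, list length, merging gap, overlap, diets, gene kinds and distance. Some genes of the lists are counted but not reported here by name.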

Additional observations from a re-analysis of the deposited data

How the results depend on the processing

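With a score of at least 100 in all 6 lists, 48.2% of RXRα regions were RXRα-only, with 49.3% and 47.0% of them in the upper 50% of the control and RA lists. With RAR peaks under 100 ignored, the number of RXRα-only regions was 26415 (56.4%), these shares were 52.9% and 49.97%, 2.76% lay within 1 kb of a start, and 5786 genes had one within 10 kb. With lists of equal length (14968 peaks each) there were 3446 (29.8%), with 47.1% and 43.2% in the upper 50%, 22.3% within 10 kb, 54.6% inside genes and 889 genes. Merging peaks up to 1 kb apart gave a share of 28.4%, with 1.51% within 1 kb and 21.0% within 10 kb. A reciprocal overlap of 25% gave 32.3%, with 37.0% in the upper 50% of the RA list, 2.86% within 1 kb and 25.2% within 10 kb. The control lists only gave 36248 regions (60.2%), 2.90% within 1 kb and 7345 genes. The RA lists only gave 24908 (42.5%), 26.7% in the upper 50%, 3.04% within 1 kb, 55.8% inside genes and 5644 genes. Starts and spans of all annotated gene kinds gave 3.91% within 1 kb, 34.7% within 10 kb, 65.3% inside genes and 5860 genes. At a distance of 50 kb the values were 62.7% and 10749 genes. All RefSeq promoter starts of each gene, an alternative chosen after seeing the data, gave 2.71% within 1 kb and 26.9% within 10 kb, against 24.0% and 42.1% of shared regions.

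In each of these settings the share within 1 kb was 1.51% to 3.91% for RXRα-only regions, and where shared regions were recomputed theirs was 13.5% to 31.3%. The 15 strongest regions were kept under the score, length and overlap settings, and 12 of them with merging up to 1 kb; of the 10 promoter regions 5 were kept with that merging. Of the 169 regions near genes of the lists, 96 were kept with a score of at least 100, 12 with lists of equal length, 117 with merging up to 1 kb and 168 with the reciprocal overlap; the regions at the starts of Alb, Cyp24a1, Hnf4a and Srebf1 and that near Fgf21 were lost with lists of equal length. Of the 21 gene lists, 15 kept a count within 1.5 times of that reported with a score of at least 100 in all lists, 9 with RAR peaks under 100 ignored (26.9% of all genes then had an RXRα-only region) and 9 over the span plus 10 kb. The cause of the changes was not tested. No paired analysis was possible because each receptor and diet had 1 library, and the result comes from no test. Depth limits what a missing RAR call means. Read totals are stated in the study for RXRα and RARα but not for RARβ or for either diet, and the depth behind a list could not be derived from them.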

Other observations

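MicroRNA genes were also compared with the RXRα-only regions, a choice made after the other results were seen. Of 1005 RefSeq hairpins (GRCm38.p6), 26 (2.59%) had an RXRα-only region within 2 kb and 142 (14.1%) a shared region. The mature forms below, written 5′ to 3′ with the seed (bases 2 to 8) in capitals, belong to Mir21c, whose nearby region had the highest control score of the 26, to Mir33, which lies in the sterol regulator gene Srebf2 and is known to repress cholesterol export, and to Mir7048, whose hairpin lay nearest to the middle of a region.
mmu-miR-21c: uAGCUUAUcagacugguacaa
mmu-miR-33-5p: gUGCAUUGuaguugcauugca
mmu-miR-7048-5p: cGGGGCUGagaggugaggaagc
The region near Mir21c (chr8:128276337-128276942) scored 443 under control and 278 under RA, that near Mir33 (chr15:82199460-82200240) 80.6 and 69.2, and that over Mir7048 (chr7:25217368-25218095) 300 and 337. None of these 3 hairpins had a shared region within 2 kb, and no expression of the microRNAs was measured here.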
